A study of Homo sapiens with 12 samples.

Results

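Polycomb repressive complex PRC2 is the enzyme that methylates lysine 27 of histone H3, and the genes of its core and accessory subunits were examined here in K562 cells treated with the USP7 inhibitor FT671 or with DMSO. The 10 genes are EZH1, EZH2, EED, SUZ12, RBBP4, RBBP7, JARID2, AEBP2, PHF19 and MTF2. They were matched by name through their Ensembl gene identifiers, and the matching used no measured value. They are 10 of the 60609 genes in the deposited count tables, and all 10 were among the 13895 genes with enough reads to be tested.

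PRC2 is built on EED, SUZ12 and a methyltransferase, which is either EZH1 or EZH2, together with the histone-binding proteins RBBP4 or RBBP7. EZH2 is the form typical of dividing cells, whereas EZH1 is weaker as an enzyme and is known from cells that divide little. Accessory subunits steer the complex to chromatin and define its classes: the Polycomb-like proteins PHF1, MTF2 and PHF19 form one class, and JARID2 with AEBP2 forms the other. In blood cells PRC2 keeps genes of other lineages silent, and both gain and loss of its activity are known from leukemias.

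The RNA came from K562, an established human line of chronic myeloid leukemia with erythroid features. Cells received 10 µM FT671 or the solvent DMSO for 48 h, and each group had 3 libraries made from total RNA after removal of ribosomal RNA. All 6 libraries share the same parental line with no genetic change stated. The study asked what blocking USP7, a deubiquitinase that it places in the non-canonical Polycomb complex PRC1.1, does to Polycomb function and transcription. ChIP-seq samples of H3K4me3, H3K36me3 and H3K27me3 are listed in the same series and were not analysed here.

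Total counts per library ranged from 5320245 to 14250500 in DMSO and from 4555220 to 11437804 in FT671. The smallest amount read as present, 3 counts, was worth 0.208 to 0.666 CPM (counts per 1e+06 mapped counts) depending on the library. DMSO replicate 3 stood apart from the other controls: its counts differed from theirs by chi-square values of 7.55 and 8.73 per degree of freedom, against 2.94 between DMSO replicates 1 and 2 and 2.07 to 3.20 among the FT671 libraries. Calls of the 10 genes without this library are given below. The erythroid identity of the cells was visible in all libraries, with GATA1, the master factor of the erythroid lineage, at 230 to 324 CPM. Of 9 erythroid markers tested, 6 fell and 3 rose after FT671, beside 26.5% and 23.6% of all tested genes. GATA1 was among those that fell (log2 fold change -0.29, edgeR adjusted p = 0.0128). Its call was lost without DMSO replicate 1 (edgeR adjusted p = 0.0745) or without FT671 replicate 3 (edgeR adjusted p = 0.0798). The lowest adjusted p-values belonged to TAL1 (log2 fold change -0.94), EPOR (-1.21) and KLF1 (-0.82) among those that fell, and to the globin genes HBZ (1.79), HBG1 (1.41) and HBG2 (1.22), which rose. Summed over 6 lymphoid markers the level was 18.7 to 23.5 CPM in DMSO and 26.5 to 32.9 CPM in FT671, nearly all of it CD3D, which rose by 0.44 on the log2 scale, while the defining B- and T-cell markers MS4A1 and LCK were at 0 in all libraries. The 5 stromal markers summed to 2.11 to 3.05 CPM in DMSO and 2.50 to 2.89 CPM in FT671, with COL3A1 and THY1 at 0.

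Between the groups, 3 of the 10 PRC2 genes fell after FT671 (EZH1, JARID2 and EED), 2 rose (RBBP7 and PHF19), and 5 did not pass the test (EZH2, SUZ12, RBBP4, AEBP2 and MTF2). Calls were made at 0.05 on p-values from the quasi-likelihood fit of edgeR, adjusted over all genes tested by the Benjamini-Hochberg method. FT671 changed very many genes: 26.5% of all tested genes were called lower and 23.6% higher, 50.1% in all, so 3 lower and 2 higher among 10 is close to the background and is no property of the list. At the study's stricter threshold of 1e-05, edgeR called JARID2 alone among the 10 lower, against 4.13% of all genes, and none higher, against 1.79%. At an unadjusted p of 0.05 there were 2 higher. With DESeq2, EZH1 (adjusted p = 3.45e-08) and RBBP7 (adjusted p = 1.85e-08) also passed 1e-05, and with edgeR JARID2 missed it in 5 of the 6 fits that left out 1 library (adjusted p from 1.56e-05 to 1.05e-04). The DMSO and FT671 libraries did not overlap for 6 of the 10 genes, 4 lower and 2 higher, beside 57.1% of all tested genes. The summed level of the 10 genes was 1085 to 1132 CPM in DMSO and 1106 to 1130 CPM in FT671, so the FT671 range lay inside the DMSO range. The median log2 fold change of the 10 was -0.060, beside -0.010 over all genes tested.

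**Figure D1:**
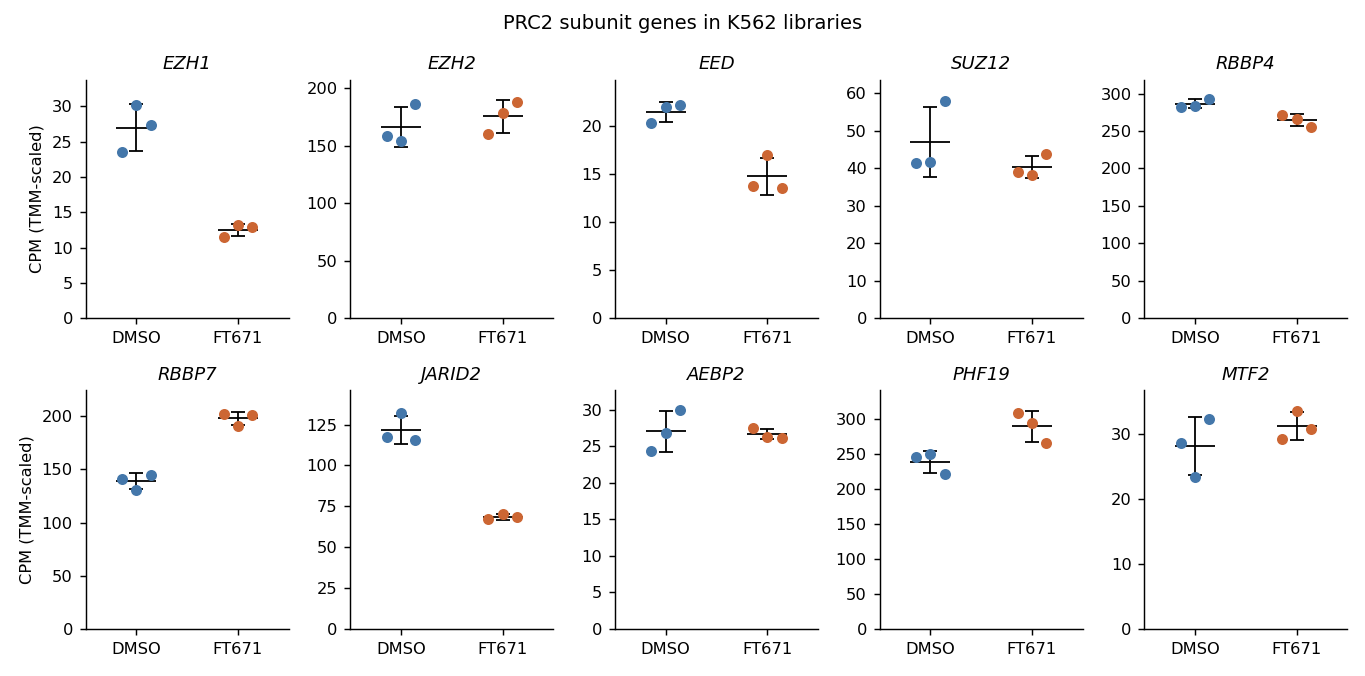
Level of each PRC2 gene in each library, in CPM after TMM scaling on a linear axis that starts at 0; points are the 3 DMSO (blue) and 3 FT671 (orange) libraries, in replicate order from left to right, with bars at the mean ± SD. EZH1, JARID2 and EED lie lower and RBBP7 and PHF19 higher in all FT671 libraries than in all DMSO libraries.

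The regions just upstream of 4 of these genes are shown because they belong to the paralogs EZH1 and EZH2, whose ratio did not overlap between groups, and to JARID2 and RBBP7, the fall and the rise with the lowest adjusted p-values. Each is the 250 bases before the RefSeq transcription start in GRCh38.p14, written 5′ to 3′ on the gene's own strand, with capitals marking the letters CCAAT (the core of the site of the factor NF-Y) and GGGCGG (the core of the site of SP1) on either strand, overlapping matches included. They are at chr17:42745041-42745290 on the minus strand for EZH1, chr7:148884292-148884541 on the minus strand for EZH2, chrX:16870363-16870612 on the minus strand for RBBP7 and chr6:15245819-15246068 on the plus strand for JARID2.
EZH1: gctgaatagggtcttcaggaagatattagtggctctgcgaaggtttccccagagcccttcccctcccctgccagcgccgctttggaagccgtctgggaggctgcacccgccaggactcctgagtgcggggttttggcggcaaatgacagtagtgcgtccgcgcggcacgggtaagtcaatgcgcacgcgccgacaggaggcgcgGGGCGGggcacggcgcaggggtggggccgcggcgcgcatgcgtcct
EZH2: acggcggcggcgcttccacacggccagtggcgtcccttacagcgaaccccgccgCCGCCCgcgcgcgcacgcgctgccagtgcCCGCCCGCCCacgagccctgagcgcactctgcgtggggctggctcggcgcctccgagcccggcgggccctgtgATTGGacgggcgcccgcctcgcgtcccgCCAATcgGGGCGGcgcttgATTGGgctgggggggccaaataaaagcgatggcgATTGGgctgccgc
RBBP7: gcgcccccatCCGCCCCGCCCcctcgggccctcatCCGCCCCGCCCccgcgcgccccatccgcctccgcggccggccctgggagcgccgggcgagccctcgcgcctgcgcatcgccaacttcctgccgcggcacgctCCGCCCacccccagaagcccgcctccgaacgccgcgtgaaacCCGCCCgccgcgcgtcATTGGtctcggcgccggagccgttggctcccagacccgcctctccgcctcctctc
JARID2: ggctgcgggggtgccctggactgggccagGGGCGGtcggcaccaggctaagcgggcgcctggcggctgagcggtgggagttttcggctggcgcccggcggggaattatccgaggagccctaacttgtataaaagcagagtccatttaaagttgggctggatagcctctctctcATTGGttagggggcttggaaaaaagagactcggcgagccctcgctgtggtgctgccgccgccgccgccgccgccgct
The EZH2 region held 4 matches to CCAAT and 4 to GGGCGG, while that of EZH1 held 0 and 1. The RBBP7 region held 1 and 6, and that of JARID2 held 1 of each. Over the 10 genes, 7 regions held CCAAT and 7 held GGGCGG, beside 32% and 42.6% of the 35116 RefSeq regions of the same length. For each of the 10 genes only the first listed region was used, whereas the 35116 include every listed region. The regions of EED, AEBP2 and PHF19 lie wholly inside the spans given below for these genes, so another start could give other matches. The regions shown had a GC content of 67.6% (EZH1), 75.6% (EZH2), 79.6% (RBBP7) and 65.6% (JARID2). The median over all regions was 58.0%, and the EED region, at 51.2%, was below it. The part of GC content in these shares was not tested. The letters TTTCGCGC and TTTGGCGC, 2 forms of the site of E2F factors, were in none of the 10 regions and in 0.968% of all regions. Other forms, such as TTTCCCGC, which is in the SUZ12 region, were not searched. The counts therefore do not show that the regions lack E2F sites. These matches describe the letters in these windows; they do not show binding.

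Of the methyltransferase genes, EZH1 fell and EZH2 did not pass the test. EZH1 (ENSG00000108799, chr17:42700275-42745049, minus strand) was at 23.5, 30.1 and 27.4 CPM in DMSO replicates 1 to 3 and at 11.5, 13.2 and 12.9 CPM in the FT671 replicates. All treated libraries lay below all controls, with means of 26.99 ± 3.35 and 12.5 ± 0.863 CPM (SD, n = 3 each). EZH1 fell 2.13-fold (log2 fold change -1.09, SE 0.133, edgeR adjusted p = 1.59e-05), which only 5.22% of all tested genes matched or exceeded downward. In bulk RNA, a change in the number of cells of one kind and a change in RNA per cell cannot be told apart.

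EZH2 (ENSG00000106462, chr7:148807257-148884321, minus strand), the catalytic subunit of proliferating cells, was at 159, 154 and 187 CPM in DMSO and at 160, 179 and 188 CPM in FT671. The groups overlapped, and the difference did not pass the test (log2 fold change 0.088, SE 0.0889, 95% interval -0.10 to 0.28, edgeR adjusted p = 0.435). The call depended on the processing. EZH2 was called higher without DMSO replicate 3 (log2 fold change 0.17, edgeR adjusted p = 0.0360) and, with all 6 libraries, after the length correction (0.23, edgeR adjusted p = 0.0167).

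Within each library, reads of EZH2 outnumbered those of EZH1 by 6.76, 5.11 and 6.82 in DMSO and by 13.8, 13.6 and 14.6 in FT671. Because both genes are read in the same library, this ratio does not depend on how libraries are scaled. It rose 2.27-fold, and none of the libraries overlapped. A two-sided exact permutation test gave p = 0.1, the smallest that 3 against 3 libraries allow, or 0.15 after adjustment over the 6 ratios computed. Counted per kilobase of exon, EZH1 made up 20.1 ± 2.71% of the EZH1 and EZH2 transcripts in DMSO and 9.92 ± 0.351% in FT671 (SD, n = 3 each). Counted per length of the longest transcript, a choice added after the data were seen, the shares were 13.7 ± 2.004% and 6.49 ± 0.238%.

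Of the other core subunits, EED fell and SUZ12 did not pass the test. EED (ENSG00000074266, chr11:86201212-86278813, plus strand), the subunit that reads methylated lysine 27 and stimulates the enzyme, was at 20.3, 21.98 and 22.2 CPM in DMSO and at 13.8, 17.0 and 13.6 CPM in FT671. All FT671 libraries were below all DMSO libraries. The fall was 1.46-fold (log2 fold change -0.54, SE 0.128, edgeR adjusted p = 0.00282). SUZ12 (ENSG00000178691, chr17:31937007-32001038, plus strand), the scaffold on which accessory subunits dock, was at 41.3, 41.8 and 57.9 CPM in DMSO and at 38.9, 38.2 and 43.8 CPM in FT671. The difference of -0.19 (SE 0.130, 95% interval -0.47 to 0.09, edgeR adjusted p = 0.250) did not pass the test. It was -0.033 without DMSO replicate 3, the highest of the 6 values, and SUZ12 was called lower with a GC correction and replicate block together (-0.24, edgeR adjusted p = 0.0250).

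The ratio of SUZ12 to EED was 2.03, 1.90 and 2.61 in DMSO and 2.82, 2.26 and 3.22 in FT671, with overlap (exact permutation p = 0.2). That of EZH2 to SUZ12 was 3.84, 3.68 and 3.23 in DMSO and 4.11, 4.67 and 4.30 in FT671, with all treated libraries above all controls (exact permutation p = 0.1). EED is the gene of the 10 with the lowest GC content, 33.0%, below all but 0.368% of tested genes, and a fit with a GC correction per gene gave a log2 fold change of -0.71 (edgeR adjusted p = 1.41e-04).

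The histone-binding subunits RBBP4 and RBBP7 are close paralogs that also serve complexes outside PRC2. RBBP7 (ENSG00000102054, chrX:16839283-16870362, minus strand) was at 141, 131 and 145 CPM in DMSO and at 202, 191 and 201 CPM in FT671. All treated libraries exceeded all controls. RBBP7 rose 1.43-fold (log2 fold change 0.51, SE 0.0721, edgeR adjusted p = 5.22e-05), the largest rise of the 10 genes. RBBP4 (ENSG00000162521, chr1:32651142-32686211, plus strand) was at 282, 283 and 293 CPM in DMSO and at 271, 267 and 255 CPM in FT671. Here all treated libraries were below all controls, as for 30.3% of all tested genes, but the difference was small and did not pass the test (log2 fold change -0.11, SE 0.0663, 95% interval -0.26 to 0.03, edgeR adjusted p = 0.167).

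The ratio of RBBP7 to RBBP4 was 0.499, 0.462 and 0.495 in DMSO and 0.745, 0.717 and 0.787 in FT671. It rose 1.54-fold without overlap (exact permutation p = 0.1). RBBP7 accounted for 38.5 ± 1.01% of the transcripts of the pair per kilobase of exon in DMSO and for 49.1 ± 1.17% in FT671 (48.7% and 59.4% by the longest transcript). Each gene of the pair is crossed by a gene on the other strand: TXLNG crosses RBBP7 and had 24.1% as many reads, and SYNC crosses RBBP4 and had 16.2% as many. Whether the counting used strand is not given in the sources used here. Neither TXLNG (log2 fold change 0.11, edgeR adjusted p = 0.426) nor SYNC (0.24, edgeR adjusted p = 0.250) passed the test.

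**Figure D2:**
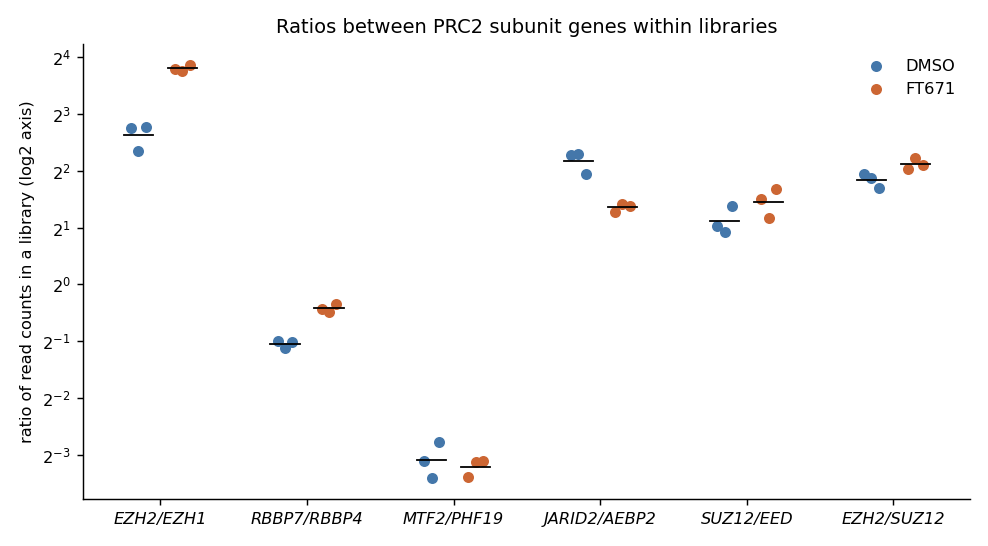
Ratio of read counts between pairs of PRC2 genes in the same library, on a log2 axis; points are DMSO (blue) and FT671 (orange) libraries and bars are means of the log2 ratios. The ratios EZH2/EZH1, RBBP7/RBBP4 and EZH2/SUZ12 lie higher and JARID2/AEBP2 lower in all FT671 libraries, while MTF2/PHF19 and SUZ12/EED overlap.

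In the class marked by JARID2 and AEBP2, one partner fell and the other did not pass the test. JARID2 (ENSG00000008083, chr6:15246069-15522042, plus strand), which binds chromatin with ubiquitylated histone H2A and stimulates PRC2, was at 118, 132 and 116 CPM in DMSO and at 67.1, 70.5 and 68.2 CPM in FT671. The treated libraries lay close together and far below the controls, with means of 122 ± 8.79 and 68.6 ± 1.77 CPM (SD, n = 3 each). JARID2 fell 1.78-fold (log2 fold change -0.83, SE 0.0811, edgeR adjusted p = 2.24e-06). With any 1 library left out the log2 fold change stayed between -0.87 and -0.76 and the call at 0.05 held.

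AEBP2 (ENSG00000139154, chr12:19404045-19720801, plus strand), the zinc finger partner of JARID2, was at 24.3, 26.8 and 29.9 CPM in DMSO and at 27.5, 26.3 and 26.2 CPM in FT671. The FT671 values lay inside the DMSO range (log2 fold change -0.0051, SE 0.112, 95% interval -0.24 to 0.23, edgeR adjusted p = 0.974), and the sign of so small a difference changed with the scaling. The ratio of JARID2 to AEBP2 went from 4.84, 4.91 and 3.86 in DMSO to 2.44, 2.68 and 2.60 in FT671, with no overlap (exact permutation p = 0.1). The lncRNA JARID2-AS1 lies on the opposite strand within JARID2 and had 102 counts over the 6 libraries, 1.95% of those of JARID2. It rose (log2 fold change 1.12, SE 0.302, edgeR adjusted p = 0.00701), and with so few reads it can make up only a small part of the JARID2 count if strand was ignored.

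Of the Polycomb-like genes, PHF19 rose and MTF2 did not pass the test, and PHF19 had the highest level of the list per kilobase of exon. PHF19 (ENSG00000119403, chr9:120855651-120894896, minus strand), which links PRC2 to chromatin marked by H3K36 methylation and to CpG islands, was at 247, 250 and 222 CPM in DMSO and at 309, 295 and 266 CPM in FT671. The groups did not overlap. PHF19 rose 1.21-fold (log2 fold change 0.27, SE 0.0784, edgeR adjusted p = 0.0106), and this call was lost without FT671 replicate 1 (log2 fold change 0.23, edgeR adjusted p = 0.0533). MTF2 (ENSG00000143033, chr1:93079235-93139079, plus strand), its paralog, was at 28.7, 23.4 and 32.3 CPM in DMSO and at 29.3, 33.6 and 30.8 CPM in FT671, with overlap (log2 fold change 0.17, SE 0.125, 95% interval -0.10 to 0.44, edgeR adjusted p = 0.283).

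PHF1, the remaining Polycomb-like gene and not among the 10, was at 72.3 to 77.1 CPM in DMSO and at 70.0 to 71.3 CPM in FT671 (log2 fold change -0.09, edgeR adjusted p = 0.358). PHF19 made up 58.6 ± 1.62% of the Polycomb-like transcripts per kilobase of exon in DMSO and 63.7 ± 1.67% in FT671 (SD, n = 3 each). The ratio of MTF2 to PHF19 overlapped between groups (exact permutation p = 0.6). Across both classes, the share of JARID2 and AEBP2 was taken among the transcripts of JARID2, AEBP2, PHF1, MTF2 and PHF19, without other accessory genes. It was 27.5 ± 1.18% in DMSO and 17.8 ± 0.696% in FT671, or 20.3% and 12.8% by the longest transcript. These shares count RNA and not assembled complexes.

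**Figure D3:**
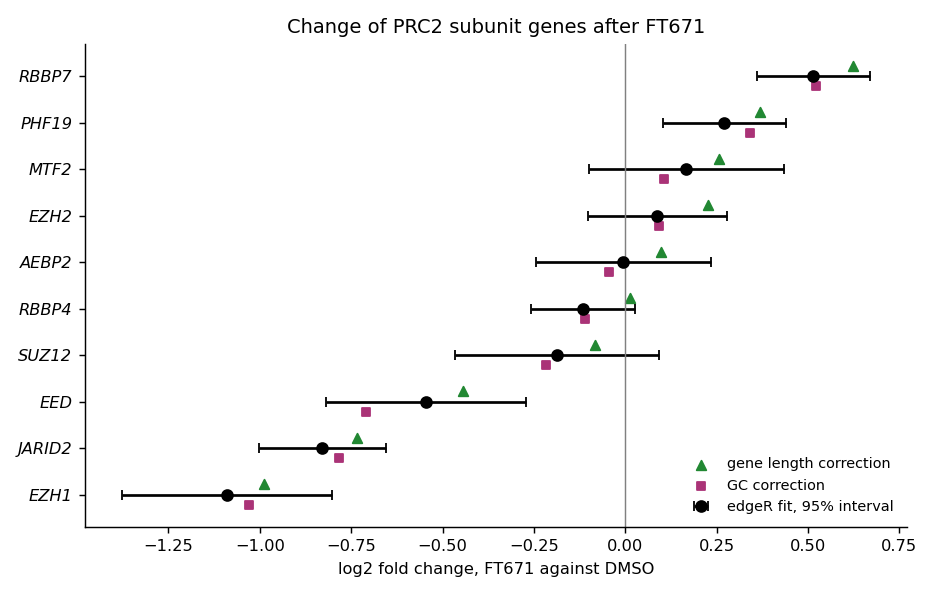
Log2 fold change of each PRC2 gene, FT671 against DMSO: black points are the edgeR estimate with its 95% interval, green triangles the estimate after a correction for gene length and purple squares that after a correction for GC content. The intervals of EZH1, JARID2 and EED lie below 0 and those of RBBP7 and PHF19 above 0; RBBP4 and AEBP2 move to the other side of 0 with the length correction.

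Levels were compared between genes only per kilobase of exon, as CPM divided by the summed exon length. In DMSO the order of the means was PHF19 (36.3), RBBP4 (30.2), JARID2 (19.5), RBBP7 (18.9), EZH2 (15.4), SUZ12 (7.17), MTF2 (4.77), AEBP2 (3.99), EZH1 (3.86) and EED (3.07). JARID2 and RBBP7, MTF2 and AEBP2, and AEBP2 and EZH1 were neighbors whose libraries overlapped. In FT671 the order was PHF19 (43.98), RBBP4 (27.9), RBBP7 (26.99), EZH2 (16.3), JARID2 (10.99), SUZ12 (6.15), MTF2 (5.29), AEBP2 (3.94), EED (2.11) and EZH1 (1.79), and only RBBP4 and RBBP7 overlapped as neighbors. By this measure JARID2 stood above EZH2 in the controls and below it after FT671, and EZH1 stood above EED in the controls and below it after FT671. These ranks depend on the length used: the exons of EZH2 cover 10774 bases in all, its longest transcript 4502 bases. By the longest transcript, EZH2 ranked second in DMSO (37.0), but its libraries overlapped those of RBBP4 (36.3), which overlapped those of RBBP7 (34.5). JARID2 was below EZH2 in both groups. EZH1 (5.83) was already below EED (7.76) in DMSO, with AEBP2 lowest (4.64). From EED through MTF2 and EZH1 to AEBP2, each neighbor overlapped the next in DMSO by this length. Per kilobase of exon, the distance between the highest and the lowest gene was 11.8-fold in DMSO and 24.5-fold in FT671.

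Of the 10 genes, the 7 with a GC content below 45% (EZH2, EED, SUZ12, RBBP4, RBBP7, AEBP2 and MTF2) all had their highest control value in DMSO replicate 3, and the other 3 (EZH1, JARID2 and PHF19) had theirs in DMSO replicate 2. Over all tested genes, the median log2 ratio of DMSO replicate 3 to the mean of the other controls was 0.20 for the 5267 genes below 45% GC and -0.10 for the 8605 others, as a description computed after the data were seen. The part of this pattern in the differences between groups was not tested. Without DMSO replicate 3, EZH1 (log2 fold change -1.08), JARID2 (-0.87), EED (-0.54), RBBP7 (0.54) and PHF19 (0.21) kept their calls, EZH2 gained one, and SUZ12 went from -0.19 to -0.033.

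Some reads may belong to near-identical copies. SUZ12P1, a partial copy of SUZ12 on the same chromosome, had 261 counts in all, 11.6% of those of SUZ12, and did not pass the test (log2 fold change 0.32, edgeR adjusted p = 0.228). RBBP4P5 had 65 and RBBP4P1 had 52 counts, 0.454% and 0.363% of those of RBBP4, while RBBP4P4 and EZH2P1 had 10 counts each. RBBP4P5 was at a log2 fold change of -0.56 (edgeR adjusted p = 0.250). Of the 10 genes, SUZ12 is the one whose level such copies could touch most. EEF1A1P4 is not a copy of AEBP2 but a pseudogene that overlaps it on the opposite strand. It had 92 counts, 6.72% of those of AEBP2, which matters if strand was ignored, and was at 0.69 (edgeR adjusted p = 0.0934).

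The remaining accessory genes of PRC2 showed 1 fall and no rise among 4 tested by edgeR or DESeq2, nor a rise at an unadjusted p of 0.05, although LCORL was called higher without DMSO replicate 3 (log2 fold change 0.22, edgeR adjusted p = 0.0198). LCOR, whose longer products join PRC2, fell from 79.0 ± 8.45 to 54.7 ± 5.33 CPM (log2 fold change -0.51, SE 0.102, edgeR adjusted p = 8.91e-04). With all libraries, its relative LCORL (0.09, edgeR adjusted p = 0.530), EPOP (-0.42, edgeR adjusted p = 0.119) and PHF1 did not pass the test, and EZHIP, an inhibitor of PRC2 normally found in germ cells, had no count in any library. The median log2 fold change of these 4 was -0.25. Over all tested genes, 26.5% were called lower and 23.6% higher.

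Genes for enzymes that remove the mark of PRC2, and for proteins that read it, were also measured. Both H3K27 demethylases fell: KDM6B from 128 ± 7.12 to 84.6 ± 3.04 CPM (log2 fold change -0.59, edgeR adjusted p = 3.02e-05) and KDM6A from 50.4 ± 5.21 to 39.3 ± 3.03 CPM (-0.36, edgeR adjusted p = 0.0115), a call lost without FT671 replicate 3 (-0.30, edgeR adjusted p = 0.0766). The 4 CBX genes described here, whose chromodomain proteins bind methylated lysine 27 within canonical PRC1, were called lower in 4 of 4 cases. Of all tested genes, 26.5% were called lower. In these 4 genes all FT671 libraries also lay below all DMSO libraries, as for 30.3% of all tested genes. CBX6 fell from 49.9 ± 1.65 to 14.6 ± 0.624 CPM (log2 fold change -1.78, SE 0.105, edgeR adjusted p = 3.67e-08) and CBX2 from 43.5 ± 4.97 to 17.8 ± 0.976 CPM (-1.31), and these 2 also passed the threshold of 1e-05. CBX8 fell from 18.8 ± 2.96 to 9.46 ± 1.16 CPM (-0.97) and CBX7, the least abundant, from 5.74 ± 0.649 to 1.91 ± 0.923 CPM (-1.41). CBX7 had 4 counts in FT671 replicate 1, near the floor of 3. It was not tested when at least 10 counts were required in every library, and 3 CBX genes were then called lower. Their median was -1.36, beside -0.060 for the 10 PRC2 genes and -0.010 over all genes.

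BAP1 is the H2AK119 deubiquitinase that works against PRC1. Of 9 tested genes, BAP1 itself and its partners, 6 fell and 1 rose, beside 26.5% and 23.6% of all genes. Their median log2 fold change was -0.42. FOXK1 (log2 fold change -1.17), ASXL1 (-0.99) and FOXK2 (-0.95) had the lowest adjusted p-values among those that fell, and OGT (0.39) rose. Complexes other than PRC2 that hold RBBP4 or RBBP7 (NuRD, SIN3, CAF-1, NURF and HAT1) had 10 genes that fell and 4 that rose of 25 tested, beside 26.5% and 23.6% of all genes, with a median of -0.17. DESeq2 called 9 and 1, and the count of rises was between 1 and 4 when 1 library was left out. MBD3, a NuRD subunit, was at -1.69, GATAD2B, another, at -0.77, and SAP30L of the SIN3 complex at -1.41. Among those that rose, the NuRD helicase gene CHD3 was at 0.50, ARID4B at 0.28 and SAP18 at 0.20. DESeq2 called neither ARID4B (adjusted p = 0.113) nor SAP18 (adjusted p = 0.0719). Both also lost their edgeR calls when DMSO replicate 1 or any 1 FT671 replicate was left out.

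EZH2 and EED are known targets of E2F factors, so genes of the E2F and RB families and of S phase were set beside them. Of 13 E2F and RB genes, 7 fell and none rose by edgeR (0 also by DESeq2 and at an unadjusted p of 0.05), with a median of -0.29. Of all tested genes, 26.5% were called lower and 23.6% higher. E2F5 was called higher with the length correction (log2 fold change 0.32, edgeR adjusted p = 0.0455) and without DMSO replicate 3 (0.33, edgeR adjusted p = 0.0186), and is named for this after its values were seen. The lowest adjusted p-values were those of E2F8 (log2 fold change -1.42), E2F3 (-0.76) and TFDP2 (-0.54). Of 20 genes of S phase and proliferation, 6 fell and 5 rose, close to the shares of all tested genes, with a median of 0.01. Without DMSO replicate 3, MKI67 was also called higher (log2 fold change 0.47, edgeR adjusted p = 1.95e-06). Without DMSO replicate 1, the rises of GINS2 (0.24, edgeR adjusted p = 0.0879) and POLA1 (0.33, edgeR adjusted p = 0.0527) lost their calls. GINS2 also lost its call without FT671 replicate 1 or FT671 replicate 3. POLA1 also lost its call without DMSO replicate 2, FT671 replicate 2 or FT671 replicate 3. These genes are named for this after their values were seen. PCNA, the replication clamp, fell most clearly (-1.44, edgeR adjusted p = 5.15e-08), followed by MCM3 (-0.45) and CDC6 (-0.46), whereas MCM4 (0.45), MCM6 (0.27) and UHRF1 (0.33) rose. The MCM6 call was lost without FT671 replicate 2 (0.23, edgeR adjusted p = 0.0535). No relation between these lists and the PRC2 genes was tested.

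The study describes the replicates as independent experiments. All values are of RNA at one dose and one time point, and neither subunit protein nor H3K27me3 was analysed here.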

How the data were processed

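K562 total RNA was depleted of ribosomal RNA and sequenced in pairs, and the authors deposited raw counts per gene from a 2-pass STAR alignment to hg38. The STAR version, annotation release and strand setting are not given in the sources used here. The 10 genes and all gene lists were chosen with earlier results of these data known. Genes were named from GENCODE 44 (60295 of 60609 matched). Genes with low counts were removed by filterByExpr, libraries were scaled by TMM, and the 3 FT671 and 3 DMSO libraries were compared by edgeR 4.0.16 (R 4.3.3) with the quasi-likelihood test and Benjamini-Hochberg adjustment over 13895 genes. The study's own tool, DESeq2 (1.42.0), was an alternative, and its threshold of 1e-05 was counted beside 0.05. The fit was checked on simulated counts. At an adjusted p of 0.05 it recovered 53.1% of genes with an absolute log2 change of 0.5 and 89.2% of those with 1. The simulated libraries held no difference like that of DMSO replicate 3. CPM are TMM-scaled; intervals cover 95%. Levels between genes were divided by the length of all exons. Ratios within libraries were tested by two-sided exact permutation. Length and GC corrections were loess curves (span 0.3) fitted per library. Named genes were the 10, the accessory, demethylase and CBX genes (1 list gene is not reported here), pseudogenes with at least 10 counts, overlapping genes that were tested, and, in each other list, the 3 with the lowest adjusted p in each direction. Upstream sequences came from RefSeq (10 of 10 matched). Totals of 4555220 to 14250500 counts set the precision; without molecular identifiers the floor of 3 counts covers counting error only.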

Additional observations from a re-analysis of the deposited data

How the results depend on the processing

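The falls of EZH1, JARID2 and EED and the rise of RBBP7 kept direction and call at an adjusted p of 0.05 under every alternative run: other scaling, filters, DESeq2, length and GC corrections, thinning to the smallest library and leaving out each library. At 1e-05, JARID2 was lost when any library other than DMSO replicate 3 was left out. EZH1 passed it, among others, with DESeq2, with the GC correction and without DMSO replicate 3, and RBBP7, among others, with DESeq2, either correction or without DMSO replicate 3. No source ties a replicate number to one experiment. The correlation of deviations was 0.115, -0.0605 and 0.14 for the same number and -0.0347 on average for other numbers. These values do not settle whether libraries with the same number are pairs. With a replicate block, edgeR gave -1.10 for EZH1 and -0.82 for JARID2 and changed no call of the 10 genes at 0.05; all genes called went from 3687 lower and 3276 higher to 3761 and 3374.

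EZH2 was called higher with the length correction (0.23, with the block 0.22) and without DMSO replicate 3 (leave-one-out range 0.033 to 0.17). SUZ12 was called lower with the GC correction and block (-0.24). PHF19 ranged from 0.21 to 0.33 and was lost without FT671 replicate 1. RBBP4 changed sign with the length correction (0.013, with the block 0.015). AEBP2 changed sign with DESeq2 size factors (0.014), protein-coding genes alone (0.0054), the length correction (0.097, with the block 0.089), thinning (0.027) and in 4 leave-one-out fits (-0.086 to 0.053). The ratio MTF2/PHF19 ranged from -0.27 to 0.047 (positive without DMSO replicate 3). The median of the 10 became 0.055 with the length correction and 0.052 with block, which also turned the split of all calls to 3486 lower and 3677 higher; with the GC correction it was 3809 and 3916, and with library totals alone 3926 and 2968. Called higher were 1 to 3 of the 10 genes and 5 to 13 genes of the other 7 lists when 1 library was left out. The cause of these changes was not tested. Depth limits EED, EZH1, AEBP2 and MTF2 most.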
